A study of Drosophila melanogaster with 10 samples.

Results

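Clk, the activator subunit of the circadian clock, and to (takeout), a clock-controlled output gene of the fat body, were lower in flies carrying the Mef2 hairpin, and cyc, which encodes the partner of CLK, was higher. The difference in Clk stayed under the threshold of significance whichever library was left out, while those in cyc and to did not. The genes described are the clock genes per, tim, Clk, cyc, vri, Pdp1, cwo and cry together with to. They were chosen by symbol through their FlyBase identifiers, and all 9 had a row among the 17559 gene rows of the deposited table and passed the filter on low counts.

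Each library was made from the polyadenylated RNA of 5 pooled whole male flies of Drosophila melanogaster, 5 to 10 days old. The 5 control samples had the genotype w[1118] / Y with 1 copy of c564, a GAL4 driver line whose activity includes the fat body but is not limited to it. The 5 knockdown samples carried w[1118], c564 and in addition UAS-Mef2-IR[GD15549], a hairpin transgene that GAL4 switches on to silence Mef2. Controls thus shared the driver but had no hairpin transgene. An effect of less Mef2 therefore cannot be told apart from another effect of the transgene or of its genetic background. The sample labels put the hairpin on a separate chromosome from the driver, and the series' design text puts it opposite the driver. RNA came from the whole body, so clock transcripts of the head, gut, fat body and other organs are summed, and fewer cells of a type cannot be told apart from less RNA per cell. The labels give neither a light schedule nor the hour at which flies were lysed.

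The fly clock is a transcriptional loop. The CLK and CYC proteins form a dimer that binds E-box elements and activates per, tim, vri, Pdp1 and cwo. PER and TIM enter the nucleus together and inhibit the dimer, VRI represses Clk and PDP1 activates it, CWO competes for E-boxes, and the blue-light receptor CRY causes TIM to be degraded. Outside the brain such loops run in the eye, the Malpighian tubules and the fat body, and the transcripts of per and tim are known to peak early in the night, those of Clk and cry around dawn. In clock neurons Mef2 is itself a known target of the dimer.

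Total counts were 43823883 to 102851945 per library, so a count of 3 equals 0.0294 to 0.067 CPM, the unit of counts relative to library size used throughout. All CPM values are scaled by edgeR's TMM factors. A gene is called where edgeR's quasi-likelihood test gives a Benjamini-Hochberg adjusted p under 0.05 over the 13928 tested genes. The targeted gene Mef2 had 88.9 to 100.7 CPM in control and 73.6 to 86.6 CPM in knockdown, and the log2 fold change of -0.24 was called (adjusted p = 0.0149, SE 0.06). The transcript of w, whose 1118 allele both genotypes carry, was at 54.6 CPM in control and 399 CPM in knockdown. That change was called as well (log2 2.87, SE 0.16, adjusted p = 8.61e-07), and its source was not tested. Markers of males were present, with Acp36DE, a seminal fluid protein gene, at 1580 ± 76 CPM (SD, n = 5) in control. Of the yolk protein genes of females, Yp1 and Yp2 were at 0.359 and 0.671 CPM in control, but Yp3 was higher, at 10.2 CPM. Every marker of fat body, photoreceptors, neurons, glia, Malpighian tubule, gut, male tract and muscle that was paired with a row had reads in every library. Replicates 1 to 3 stood apart from replicates 4 and 5 in both groups. This division was found in these data and no label names it. Below it is used to give values within each set of replicates, for fits of each set alone and as a covariate. It is also used for a test of whether the knockdown effect differed between the sets. The p-values from these uses take no account of the division having been found in the same data. For Mef2 itself the log2 fold change came to -0.34 in replicates 1 to 3 but to -0.09 in replicates 4 and 5, and it was not called in replicates 4 and 5 alone. This difference was called (interaction adjusted p = 0.0425), but the call was lost under 14 of 18 alternatives, among them the omission of any library except knockdown replicate 4 (adjusted p up to 0.134).

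Of the 9 genes, 1 was called higher, 2 were called lower and 6 were not called. Across all tested genes, 11.1% were called higher, 5.51% lower and 16.6% in either direction. The control and knockdown libraries did not overlap in 3 of the 9 genes, against 18.6% of all tested genes. With the replicate number as a block, 20.4% of all tested genes and 3 of the 9, again Clk, cyc and to, were called. The median log2 fold change of the 9 genes was 0.022, and that of all tested genes was -0.0039.

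**Figure D1:**
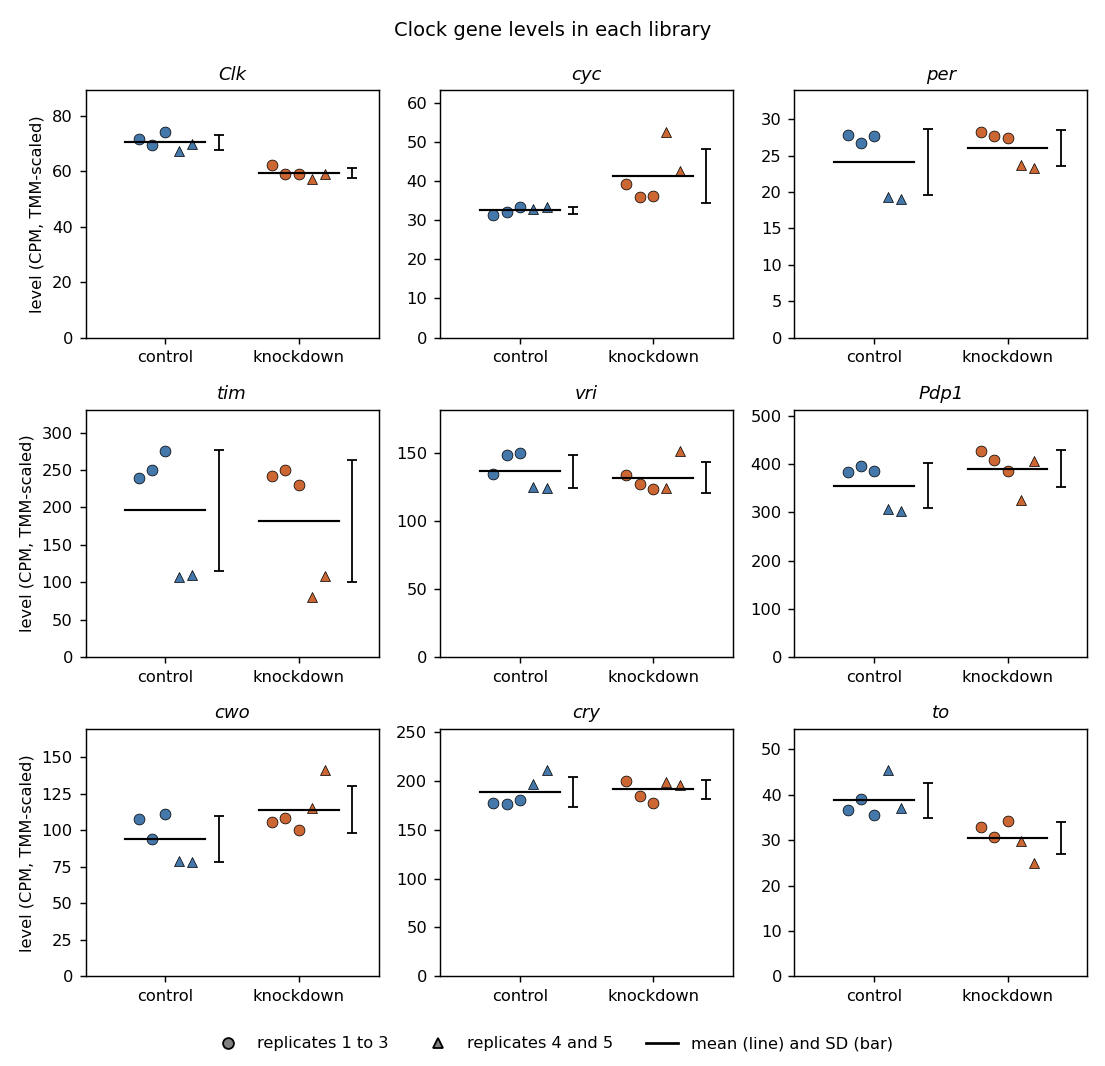
Level of each clock gene and of to in CPM (vertical axes from 0) in the 5 control and 5 knockdown libraries, with circles for replicates 1 to 3, triangles for replicates 4 and 5, a line for the mean and a bar for the SD. Clk and to are lower and cyc is higher in every knockdown library than in every control library, and tim falls to between 80.4 and 109.9 CPM in replicates 4 and 5 of both groups.

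The activator pair moved in opposite directions. Clk (FBgn0023076, chromosome 3L, 7763233 to 7775603, minus strand, BDGP6) held 71.7, 69.4, 74.3, 67.1 and 69.8 CPM in control replicates 1 to 5. Its knockdown libraries held 62.1, 59.1, 59.1, 57.2 and 59.1 CPM. Every knockdown library was below every control library, and the spread within a group was small, with a coefficient of variation of 3.82% in control and 2.96% in knockdown. Its log2 fold change was -0.25 (SE 0.04, adjusted p = 0.00331), a mean level 0.842 times that of control. The change was nearly equal in both sets of replicates, -0.26 within replicates 1 to 3 and -0.23 within replicates 4 and 5, and the call held when any single library was left out (adjusted p 0.00386 to 0.00996).

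cyc (FBgn0023094, chromosome 3L, 19813770 to 19815938, minus strand), whose transcript is known to be steady through the day, held 31.4, 32.0, 33.3, 32.9 and 33.4 CPM in control. The knockdown libraries held 39.2, 36.0, 36.3, 52.7 and 42.5 CPM, all above the controls, with replicate 4 the highest. cyc was called higher (log2 fold change 0.34, SE 0.10, adjusted p = 0.0316). The coefficient of variation was 2.69% in control and 16.6% in knockdown. Leaving out control replicate 1, 2, 3, 4 or 5 ended the call (adjusted p = 0.0803, 0.0703, 0.0756, 0.0607 and 0.0562), as did leaving out knockdown replicate 5 (adjusted p = 0.0697). Without knockdown replicate 4 it held at a smaller log2 fold change of 0.22 (adjusted p = 0.0265). It was also called in replicates 1 to 3 alone (0.21, adjusted p = 0.0103) and in replicates 4 and 5 alone (0.49, adjusted p = 0.0222).

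per and tim, the genes of the negative limb, were not called. tim (FBgn0014396, chromosome 2L, 3493986 to 3508119, minus strand) held 238.6, 249.7, 275.4, 107.4 and 109.9 CPM in control replicates 1 to 5. In knockdown it held 242.4, 249.98, 229.8, 80.4 and 107.7 CPM. The groups overlapped, and in both of them replicates 4 and 5 were far below replicates 1 to 3. The log2 fold change was -0.11 (SE 0.36, adjusted p = 0.85), and the 95% confidence interval ran from -0.90 to 0.69. With the set of replicates as a covariate the log2 fold change was -0.13 (adjusted p = 0.194).

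per (FBgn0003068, chromosome X, 2685580 to 2692780, plus strand) held 27.9, 26.8, 27.8, 19.3 and 19.0 CPM in control and 28.3, 27.7, 27.4, 23.7 and 23.3 CPM in knockdown. Replicates 1 to 3 of both groups lay close together, and the control libraries of replicates 4 and 5 were the lowest. The log2 fold change over all libraries was 0.11 (SE 0.12, adjusted p = 0.537, 95% interval -0.16 to 0.38). The effect differed between the sets (interaction adjusted p = 0.0215), being 0.017 in replicates 1 to 3 and 0.29 in replicates 4 and 5. The same interaction test was passed by 18.8% of all tested genes. This interaction was not called without control replicate 4, control replicate 5 or knockdown replicate 2 (adjusted p up to 0.0807), nor with limma voom quality weights or the replicate number as a block (adjusted p = 0.0597). Exons of per overlap those of dyw, a takeout family gene on the opposite strand, by 49 bases. dyw had counts of 54 to 147, and the strand setting of the counting is not given in the sources used here.

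**Figure D2:**
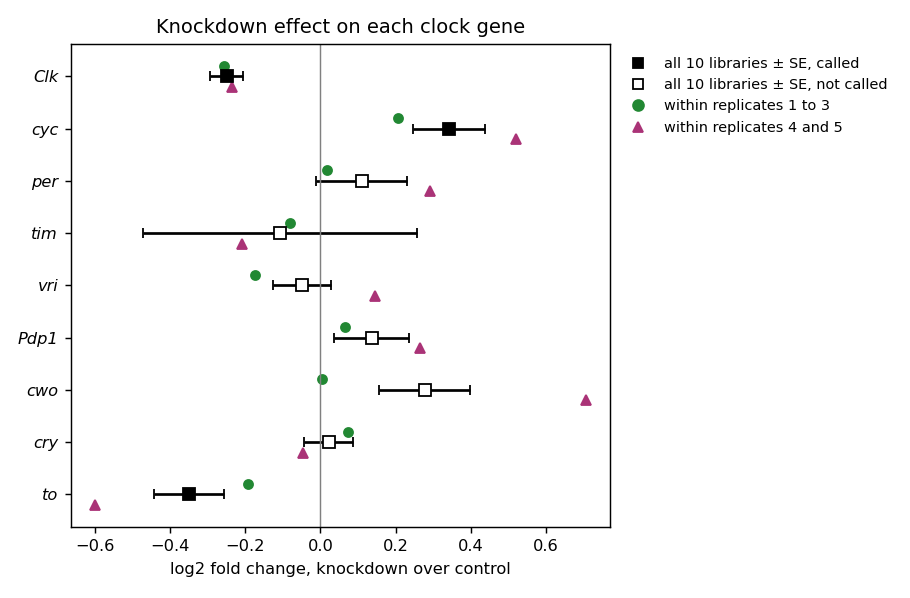
Log2 fold change of knockdown over control for each gene (horizontal axis), with squares for the fit of all 10 libraries ± SE, filled where called, circles for replicates 1 to 3 and triangles for replicates 4 and 5. Clk lies at the same place in both sets, whereas cwo goes from 0.0040 in replicates 1 to 3 to 0.71 in replicates 4 and 5.

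Among the targets of the dimer that feed back on transcription, none was called in the fit of all libraries. cwo (FBgn0259938, chromosome 3R, 10388258 to 10400752, plus strand), a repressor that competes for E-boxes, held 107.7, 93.8, 111.3, 78.7 and 78.4 CPM in control. The knockdown libraries held 105.3, 108.4, 99.7, 115.1 and 140.9 CPM. The groups overlapped within replicates 1 to 3, while both knockdown libraries of replicates 4 and 5 were above every control library. Over all libraries its log2 fold change was 0.28 (SE 0.12, adjusted p = 0.124). The effect differed between the sets (interaction adjusted p = 0.00818), and cwo was called higher in a fit of replicates 4 and 5 alone (0.68, adjusted p = 0.0102). This interaction was called under each of the 18 alternatives tried for it. The fitted changes of cwo, per, cyc, to, Pdp1 and tim were larger in size in replicates 4 and 5, and those of Clk, vri and cry were not. The difference between the sets was called for cwo and per alone among the 9 genes. The relation of these changes to the level of Mef2 was not tested.

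vri (FBgn0016076, chromosome 2L, 5288944 to 5311223), the repressor of Clk, ranged from 124.2 to 150.2 CPM in control and from 123.5 to 151.7 CPM in knockdown. Its change of -0.05 on the log2 scale was not called (SE 0.08, adjusted p = 0.666). It was called lower in replicates 1 to 3 alone (-0.17, adjusted p = 0.0331) and was at 0.12 (adjusted p = 0.465) in replicates 4 and 5 alone, but the difference between the sets was not called (interaction adjusted p = 0.074). Pdp1 (FBgn0016694, chromosome 3L, 7811458 to 7867369), which counters VRI at Clk, ranged from 303.7 to 397.4 CPM in control and from 326.5 to 427.6 CPM in knockdown. Its log2 fold change was 0.14 (SE 0.10, adjusted p = 0.338, 95% interval -0.08 to 0.35). Both genes overlapped widely between the groups.

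cry (FBgn0025680, chromosome 3R, 19212154 to 19215442), the photoreceptor protein of the clock, ranged from 176.2 to 211.0 CPM in control and from 177.5 to 200.2 CPM in knockdown. Its change of 0.022 on the log2 scale was not called (SE 0.06, adjusted p = 0.824), with a 95% interval of -0.12 to 0.16, and its sign turned negative (-0.018) with upper-quartile scaling. The knockdown range lay inside the control range. The exons of cry and tim overlap those of other annotated genes that were not analysed here, by 9 and 329 bases for cry and by 151 and 545 bases for tim.

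to (FBgn0039298, chromosome 3R, 25240180 to 25241668, plus strand) encodes a secreted protein of the juvenile hormone binding protein family that is known to respond to the clock and to starvation. It held 36.6, 39.2, 35.6, 45.4 and 37.1 CPM in control and 32.9, 30.7, 34.1, 29.8 and 24.9 CPM in knockdown. Every knockdown library was below every control library, the lowest being knockdown replicate 5. The log2 fold change was -0.35 (SE 0.09, adjusted p = 0.0254), a mean level 0.785 times that of control. The call was lost without control replicate 2 (adjusted p = 0.0515) or control replicate 4 (adjusted p = 0.0571). Within the sets the changes were -0.19 for replicates 1 to 3 and -0.60 for replicates 4 and 5, a difference that was not called (interaction adjusted p = 0.0629) but was called with the replicate number as a block (adjusted p = 0.0452), with DESeq2, and without control replicate 5 or knockdown replicate 4.

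Single fat body markers also differed between the groups, in both directions. The counts of called markers below stand against 11.1% of all tested genes called higher, 5.51% lower and 16.6% in either direction. With the replicate number as a block, 20.4% were called in either direction. The marker lists are too short for a count near these shares to say anything of a cell type. Of 9 tested fat body markers, 2 were higher (Mtp and svp) and 2 lower (Lsd-1 and Desat1), and the tenth, Fbp1, did not pass the filter on low counts. The call of svp (adjusted p = 0.0474) was lost under 14 of 21 alternatives, including the replicate number as a block (adjusted p = 0.0702), while the other 3 calls held under all 21. The sum of the 9 was 6650 to 7723 CPM in control and 4618 to 6348 CPM in knockdown. Desat1, a fatty acid desaturase gene, made up most of the gap between these sums, at 3482 ± 154 CPM in control and 2099 ± 394 CPM in knockdown (SD, n = 5). The other 8 markers summed to 3314 to 4011 CPM in control and 3162 to 3958 CPM in knockdown, and those ranges overlapped. Most of that sum was apolpp (2462 CPM in control), so it says little of the other markers. Lsp2 changed by 0.51 in replicates 1 to 3 and by -1.69 in replicates 4 and 5, and Lsp1beta by 0.69 and -1.75. The interaction was called for Lsp2, Lsp1beta, apolpp, Lsd-1, Obp44a and svp but not for Apoltp, Mtp and Desat1, against 18.8% of all tested genes. Malpighian tubule markers summed to 1192 to 1271 CPM in control and 1312 to 1526 CPM in knockdown, with 2 of 7, Uro and Irk1, called higher and NaPi-T in addition with the block (adjusted p = 0.00954). Photoreceptor markers summed to 6382 to 6709 CPM in control and 5607 to 6967 CPM in knockdown, with 1 of 13, Arr1, called lower and trpl in addition with the block (adjusted p = 0.0256). Markers of the male tract summed to 2230 to 2458 CPM in control and 1836 to 2201 CPM in knockdown, without overlap, and 1 of 6, Acp36DE, was called lower (log2 -0.24, adjusted p = 0.0396). The calls of Arr1 and Acp36DE were each lost without any single control library or without knockdown replicate 1, 2 or 3 (adjusted p up to 0.0854 and 0.0863), and in replicates 4 and 5 alone. None of 10 neuron, 6 glia, 7 gut and 8 muscle markers was called by edgeR, while the gut marker LysP was called lower with the block (adjusted p = 0.0259). The part of these shifts in the changes of Clk, cyc and to was not tested.

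Per kilobase of exon, taken from the union of annotated exons in Ensembl release 115, cry was the highest in control, at 99.5 ± 8.0 CPM per kb (SD, n = 5). It was followed by to at 31.0 ± 3.1, Pdp1 at 29.3 ± 3.8, vri at 28.8 ± 2.6 and tim at 27.9 ± 11.5 CPM per kb, whose libraries overlapped one another. Then came cyc at 20.1 ± 0.5, cwo at 18.5 ± 3.0 and Clk at 15.6 ± 0.6 CPM per kb, with per lowest at 5.34 ± 1.01. The libraries of cyc lay within the range of tim, those of cwo overlapped those of both its neighbours, and those of Clk and per did not overlap. In knockdown Clk was at 13.1 ± 0.4 and cyc at 25.4 ± 4.2 CPM per kb, so that the mean transcript levels of Clk and cyc lay further apart than in control. Protein levels of the subunits were not measured here. The union of exons covers all isoforms of a gene, which lowers the level per kb of genes with many alternative exons, such as Pdp1.

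The largest difference seen in any of the 9 genes, that of tim, lay between the sets of replicates and not between the genotypes. Because the sets were found in these data, the values are given without a test. The mean of tim in replicates 1 to 3 was 2.34 times that in replicates 4 and 5 in control (255 against 108.7 CPM) and 2.56 times in knockdown (241 against 94.0 CPM). On the log2 CPM scale the difference was -1.23 in control and -1.37 in knockdown, and 0.23% and 0.402% of tested genes, respectively, had a lower value. A difference of at least 1 log2 unit downward in both groups was seen in 27 of the 13928 genes (0.194%), and tim was the only one of the 9 genes among them. per was also lower in replicates 4 and 5 of both groups, by -0.52 in control and -0.24 in knockdown, with no overlap of the sets in either group.

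The other dimer targets were lower in replicates 4 and 5 of control and did not share a direction in knockdown. For Pdp1 the difference between the sets was -0.35 in control and -0.16 in knockdown, for cwo -0.40 and 0.29, and for vri -0.21 and 0.098. Clk differed little between the sets, by -0.07 and -0.05, and cry was higher in replicates 4 and 5 by 0.20 in control and 0.08 in knockdown. cyc differed by 0.042 in control and by 0.35 in knockdown, and to by 0.15 and -0.26. All 8 muscle markers were lower in replicates 4 and 5 of both groups, their sum going from 7282 to 8484 CPM down to 5782 to 5917 CPM in control and from 8156 to 8929 CPM down to 4804 to 5990 CPM in knockdown. Of 10 neuron markers 7 were lower in replicates 4 and 5 of both groups, with median differences of -0.18 in control and -0.07 in knockdown. Of 6 glia markers, 4 were lower and 2 higher in both groups. Other marker lists did not share this direction. Of 13 photoreceptor markers, 3 were lower and 5 higher in both groups, and of 7 Malpighian tubule markers, 0 were lower and 4 higher. Lower and higher in both groups were 2 and 2 of 9 fat body, 2 and 3 of 7 gut and 2 and 1 of 6 male tract markers. The part of these shifts in the differences of tim and per was not tested.

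**Figure D3:**
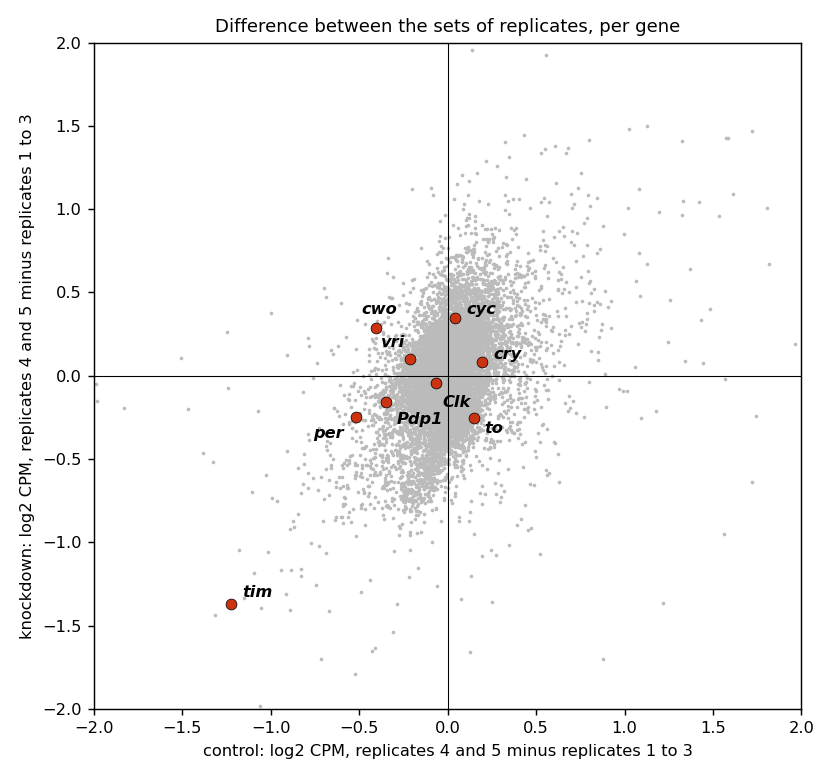
Difference in log2 CPM between replicates 4 and 5 and replicates 1 to 3 in control (horizontal axis) and in knockdown (vertical axis), with grey points for 10579 genes of mean log2 CPM at least 2 and red points for the clock genes and to. tim stands apart at the lower left, and 15 genes lie outside the axis limits of 2.

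The genes most like tim, Clk and to in their variation within groups were sought among 10570 other genes (mean log2 CPM of 2 or more), by Pearson's r of log2 CPM centred within each group over the 10 libraries. For tim these were CLIP-190 (r = 0.995), LUBEL (0.985), CG43078 (0.983) and Srpk79D (0.980), and 289 genes reached an r of 0.9. Their differences between the sets were smaller than that of tim, from -0.10 for CLIP-190 to -0.42 for CG43078 in control. For Clk they were Csas (0.951), sick (0.919), CG42402 (0.892) and the transcription factor gene Atf-2 (0.881), of which Atf-2 was also called lower (-0.19, adjusted p = 0.0427). For to they were CG43231 (0.950), CG12963 (0.935), CG42656 (0.928) and CG11550 (0.924), of which CG11550 was called lower (-0.41, adjusted p = 0.0452). The 10 libraries share their sets of replicates, so these values describe likeness only.

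The counts of called genes in the related lists stand against 11.1% of all tested genes called higher, 5.51% lower and 16.6% in either direction, and the lists are too short for a count near these shares to say anything of a list. The first lists hold genes whose proteins modify, degrade or translate PER, TIM and CLK. Of 12 genes for clock kinases and phosphatases, 1 was higher and none lower, with a median log2 fold change of 0.11. The higher gene was mts, the catalytic subunit of protein phosphatase 2A, which removes phosphate from PER (229.9 ± 8.9 to 283 ± 24 CPM, SD, n = 5; log2 0.30, SE 0.07, adjusted p = 0.0106). The kinase genes dco (doubletime) and sgg (shaggy) had log2 fold changes of 0.14 (adjusted p = 0.136) and 0.12 (adjusted p = 0.181). Of 8 genes for turnover and light input, none was called by edgeR, while 1, the proteasome subunit gene Rpn3, was called with the replicate number as a block (0.18, adjusted p = 0.0291). The F-box gene jet (jetlag), which targets TIM after light, was at 0.21 (adjusted p = 0.0945).

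Of 6 genes for translation and partners of the clock, 1 was higher, Lsm12a, which acts with ATX2 and TYF in the translation of PER (log2 0.27, SE 0.08, adjusted p = 0.0392). Leaving out control replicate 1, 2, 3, 4 or 5 or knockdown replicate 4 or 5 ended this call (adjusted p up to 0.0975), as did dropping the filter beyond 1 count. tyf itself was at 0.12 (adjusted p = 0.227) and Atx2 at 0.10 (adjusted p = 0.326). Of 10 transcription cofactor genes, 1 was higher, wge (log2 0.29, SE 0.07, adjusted p = 0.0228), and its call was lost (adjusted p up to 0.0623) without control replicate 1, 3, 4 or 5 or knockdown replicate 4. CrebB, a cyclic AMP response element binding protein gene, was at 0.29 (adjusted p = 0.0658) and was called with the block (adjusted p = 0.0154).

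Of 10 genes for clock neuropeptides and a receptor, 1 was lower. Pdf, the neuropeptide of the ventral clock neurons that couples the pacemaker cells, went from 11.4 ± 0.5 to 9.44 ± 0.63 CPM (SD, n = 5; log2 -0.28, SE 0.06, adjusted p = 0.0123), with no overlap between the groups. Replicates 1 to 3 gave a change of -0.32 and replicates 4 and 5 of -0.23. The call held without any single library (adjusted p 0.00545 to 0.0337) but was lost in replicates 4 and 5 alone. The receptor gene Pdfr was at 0.10 (adjusted p = 0.203).

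**Figure D4:**
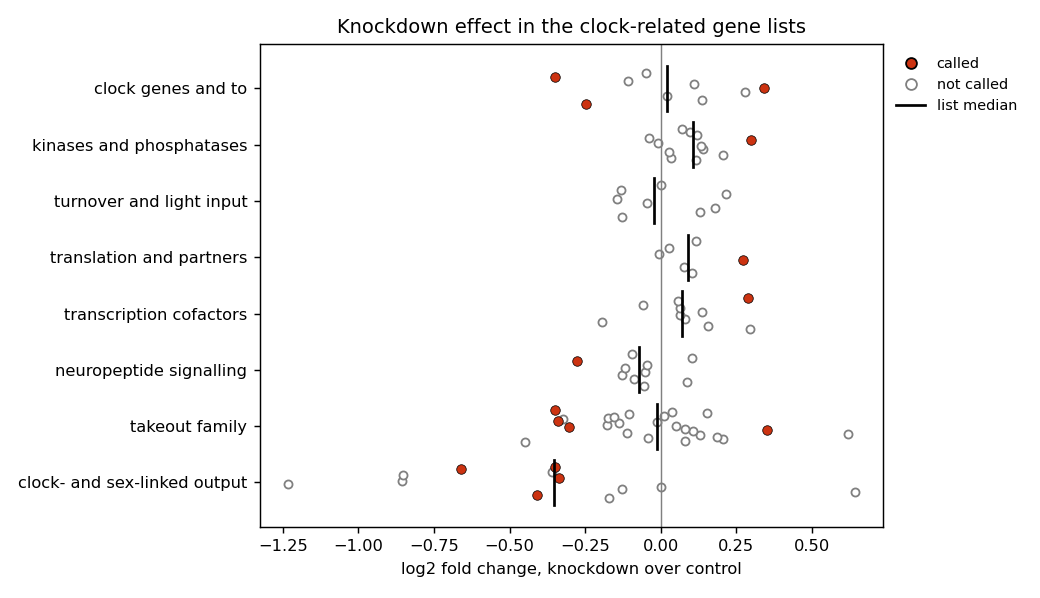
Log2 fold change of knockdown over control (horizontal axis) for every tested gene of the clock genes and 7 related lists, with red points for called genes, open points for the others and a black line for the list median. The median of the list of clock- and sex-linked output genes was -0.35, and the other medians lay between -0.07 and 0.11.

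Of 27 genes of the takeout family and related genes, 25 passed the filter on low counts. Among these 25, 3 were lower and 1 higher, with a median log2 fold change of -0.012, so that the share called was close to that of all tested genes. Beside to, the lower genes were Jhbp1 (35.6 ± 1.9 to 28.8 ± 1.8 CPM, SD, n = 5; log2 -0.30, SE 0.06, adjusted p = 0.00604) and Jhbp15 (log2 -0.34, SE 0.08, adjusted p = 0.0128). The higher gene was CG7968 (log2 0.35, SE 0.08, adjusted p = 0.0133). dyw, which lies beside per, was at 0.04 (adjusted p = 0.898). With the block, CG34316 was also called higher (0.58, adjusted p = 0.0148).

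The list of genes linked to the clock, the fat body of the head or sex held 12 tested genes, of which 4 were lower and none higher, with a median log2 fold change of -0.35. Besides to these were sxe2, a lipase-like gene regulated by sex in the fly head (97.6 ± 8.0 to 61.8 ± 5.0 CPM, SD, n = 5; log2 -0.66, SE 0.07, adjusted p = 0.000133), the yolk protein gene Yp3 (log2 -0.34, SE 0.07, adjusted p = 0.00619) and Cyp4d21, a male-enriched cytochrome P450 gene known to act downstream of Clk (log2 -0.41, SE 0.13, adjusted p = 0.0454). Leaving out control replicate 1, 2, 3 or 4 or knockdown replicate 2, 3 or 5 ended the call of Cyp4d21 (adjusted p up to 0.0956), as did limma voom. With the block, fit (-1.05, adjusted p = 0.0154) and Yp1 (-1.11, adjusted p = 0.0443) were also called lower. Obp99b, an odorant-binding protein gene of the same list, had the highest fold change of the 12 and was not called (0.64, adjusted p = 0.264). It went up in replicates 1 to 3 (1.52) and down in replicates 4 and 5 (-1.07), and this difference was called (interaction adjusted p = 0.00163) and remained so under the 18 alternatives. Obp99b was called in each set of replicates alone and with limma voom quality weights. Slob, a channel-binding protein gene with a cycling transcript, was at -0.13 (adjusted p = 0.668), and it was lower in replicates 4 and 5 by -0.81 in control and -0.53 in knockdown.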

How the data were processed

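Polyadenylated RNA of 10 whole-fly samples, 5 per group, was sequenced, and the deposited table holds whole-number counts per gene that the authors did not normalize. The submitters' processing notes name bcl2fastq, STAR 2.4.0j, featureCounts and limma as tools and BDGP6 as genome. Neither these notes nor the labels give the annotation release, the strandedness of the counting or the handling of multi-mapping reads.

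Symbols and coordinates came from Ensembl release 115 of BDGP6, where 17253 of 17559 rows had coordinates. Of the genes placed on lists, 161 entries were paired with a row and 5 were not. The counts were fitted with edgeR 4.0.16 in R 4.3.3 (TMM, filterByExpr with a minimum count of 10, quasi-likelihood test on group alone, all 10 libraries). SE was taken from the log2 fold change and the F statistic (its absolute value over the root of F). The interaction of group with set of replicates was tested by the same steps over all tested genes. Log2 CPM values used a prior count of 2. The steps were tested on simulated data. Alternatives used DESeq2 1.42.0, limma 3.58.1, other scalings and filters, sets of replicates, and the omission of each library.

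The 9 genes and the lists were chosen with earlier results of these data known. All 9 were named, as were called list genes, at most 4 per list, and the 4 genes most like tim, Clk and to. Other genes were named after their values were seen. Deviations from group means of samples with the same replicate number had correlations from 0.155 to 0.277, so every pair exceeded the bound of 0.1, against 0.0896 to 0.344 for other numbers of the same set and -0.307 to -0.0958 between sets. The values for the same number lay inside the range for other numbers of the same set, so they do not show pairing by number. By the bound of 0.1 the number served as a block in an alternative fit, although no label says that it marks a shared day or batch. Replicate libraries differed by more than sampling noise in every pair (chi-square per degree of freedom of at least 6.86). Floors cover counting error only, because reads were counted without molecular identifiers and PCR copies cannot be told apart.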

Additional observations from a re-analysis of the deposited data

Results flagged for a closer look

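The knockdown effect on cwo differed between the sets of replicates (interaction adjusted p = 0.00818, edgeR's quasi-likelihood test), at a log2 fold change of 0.0040 within replicates 1 to 3 and 0.71 within replicates 4 and 5. In replicates 4 and 5 cwo stood at 78.7 and 78.4 CPM in control against 115.1 and 140.9 CPM in knockdown. The effect on per differed as well (interaction adjusted p = 0.0215, edgeR), at 0.017 and 0.29, with 19.3 and 19.0 CPM in control against 23.7 and 23.3 CPM in knockdown in replicates 4 and 5. cwo and per were 2 of the 9 genes, and the same interaction test was passed by 18.8% of all tested genes. The interaction call of per was lost under 5 of 18 alternatives. None of the 18 groups of 5 libraries, 1 per gene and genotype, held a library that stood apart from the others by Dixon's criterion.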

How the results depend on the processing

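Clk kept its direction and its call under all 21 alternatives (log2 -0.29 to -0.25). cyc and to kept their direction under all 21 (0.20 to 0.49 and -0.62 to -0.19), and their calls were lost under the omissions named beside them. The number of the 9 genes called higher was 2 in replicates 4 and 5 alone (cwo with cyc) and 0 to 1 when a library was left out, namely 0 on leaving out control replicate 1, 2, 3, 4 or 5 or knockdown replicate 5. The number called lower was 3 in replicates 1 to 3 alone (vri with Clk and to) and 1 to 2 when a library was left out, 1 without control replicate 2 or 4. Signs turned for genes that were not called. For tim the change was 0.16 with voom quality weights and -0.26 to 0.063 when a library was left out, for vri 0.12 in replicates 4 and 5 alone, and for cry -0.018 with upper-quartile scaling, -0.072 in replicates 4 and 5 alone and -0.010 to 0.066 when a library was left out; the cause was not tested. With the replicate number as a block, 3 of the 9 genes were called, as without it, and no call among them changed, while the interaction was called for cwo and to instead of cwo and per. The interaction was called for 1 gene with voom quality weights and for 1 to 5 when a library was left out, 1 without control replicate 4 or knockdown replicate 2, 5 without knockdown replicate 4 and 4 without knockdown replicate 5. The share of all tested genes passing this test, 18.8%, was taken only in the edgeR fit of all 10 libraries without the block. These counts therefore have no share of all genes to be set against.

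Across all genes, 1549 were higher and 768 lower. The higher genes numbered 2687 with the set as a covariate and 853 to 1612 when a library was left out (952, 1001 and 853 without control replicate 1, 2 or 3). The lower genes numbered 1304 with DESeq2, 1547 with voom quality weights, 2084 with the set as a covariate, 1386 in replicates 1 to 3 alone, 2011 in replicates 4 and 5 alone and 414 to 941 when a library was left out (473, 444, 414 and 454 without control replicate 1, 3, 4 or 5). Higher genes were 66.9% of calls, 53.2% with upper-quartile scaling, 56.3% with the set as a covariate and 47.7% in replicates 4 and 5 alone. Of the listed pathway genes beyond the 9, 10 were called, 15 with the block, 23 with voom quality weights, 19 with the set as a covariate, 27 in replicates 1 to 3 alone, 18 in replicates 4 and 5 alone and 7 to 12 when a library was left out. The lists held 12, 8, 6, 10, 10, 25 and 12 tested genes, counting to in the takeout and the output list. Calls over all genes rose in these settings too. Higher and lower genes numbered 1819 and 1019 with the block and 2164 and 1547 with voom quality weights. They numbered 2687 and 2084 with the covariate, 2150 and 1386 in replicates 1 to 3 alone and 1832 and 2011 in replicates 4 and 5 alone.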

Other observations

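The 27 genes that, like tim, were lower by at least 1 log2 unit in replicates 4 and 5 of both groups included several of high abundance, named here after their values were seen and given without a test. Gapdh1, a glycolytic dehydrogenase gene, differed between the sets by -1.06 in control and -1.39 in knockdown, and TpnC4, a troponin C gene of muscle, by -1.06 and -1.98. Mpcp1, a mitochondrial phosphate carrier gene, differed by -1.31 and -1.44, and Scp1, which encodes a calcium-binding protein, by -1.18 and -1.05.

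In the other direction, 32 genes (0.23% of those tested) were higher by at least 1 log2 unit in replicates 4 and 5 of both groups, and immune peptide genes were among them. Dro, the drosocin gene, differed by 2.84 in control and 1.43 in knockdown, and BomBc1, a bomanin gene, by 2.27 and 1.15. The lysosomal mannosidase genes LManIII and LManV differed by 1.61 and 1.09 and by 1.42 and 1.05. The labels give no record of how the sets were reared, collected or lysed.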
